A study of Mus musculus with 778 samples.

Results

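Methylation of lysine 9 of histone H3 (H3K9) is the main mark of silent chromatin, and the 10 genes described here encode its writers, readers and erasers. They are the methyltransferase genes *Ehmt1*, *Ehmt2*, *Setdb1*, *Suv39h1* and *Suv39h2*, the HP1 genes *Cbx1*, *Cbx3* and *Cbx5*, and the demethylase genes *Kdm3a* and *Kdm4a*. They were picked by name, and all 10 were found among the 23201 genes of the count table. The table came from single-cell RNA-seq of wild type ICR mouse oocytes picked one by one from the ovary, with unique molecular identifiers (UMIs) that count each cDNA molecule once. Oocytes were staged by diameter as non-growing (NGO, under 20 μm), growing (GO1, 30 to 45 μm; GO2, 50 to 55 μm; GO3, 60 to 65 μm) and fully-grown (FGO, over 70 μm). NGO cells were taken from females 3 to 4 days old and all other cells from females 3 to 4 weeks old, so growth and mouse age cannot be told apart in any comparison with NGO. None of the oocytes carried a mutation or had been treated, and how many mice gave the cells of a stage is not given in the sources used here.

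The table held 46 NGO, 51 GO1, 26 GO2, 44 GO3 and 56 FGO cells, with stage totals of 24976634 to 64311908 UMIs. The 4 RNA libraries, which are titled as batches, could not be assigned to cells. How the batches were spread over the stages is not known, so stage and batch cannot be told apart in any comparison. Each stage is thus 1 pooled sample, no test between stages was possible, and every interval below covers counting error only. A level is the UMIs of a gene summed over the cells of a stage per 1000000 UMIs of that stage (CPM), with an exact Poisson interval at 95%. It is a share of the molecules counted and says nothing of how much RNA an oocyte held. In GO1 80.4% of all UMIs came from the 10 deepest cells, in GO2 73.2% and elsewhere 42.6% to 49.7%, so values over single cells are given beside the sums. All 10 oocyte markers reached 10 CPM in all 5 stages. The 9 granulosa cell markers together made up 8.89 CPM in NGO and 12.7 to 29.6 CPM in the later stages, where *Cyp19a1* alone reached 10 CPM. The 8 stromal and theca cell markers summed to 8.65 CPM in NGO and 1.05 to 1.59 CPM later. Of the 6 blood and endothelial markers, which summed to 9.09 CPM in NGO and 28.3 to 50.5 CPM later, *Pecam1* alone reached 10 CPM and *Hbb-b1* and *Hba-a1* were at 0 UMIs. The part of these markers in the differences between NGO and the later stages was not tested.

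G9a (*Ehmt2*) and its partner GLP (*Ehmt1*) place mono- and dimethylation on H3K9 in euchromatin, SETDB1 trimethylates H3K9 at retrotransposons and other silenced loci, and SUV39H1 and SUV39H2 trimethylate it at pericentromeric heterochromatin. HP1 proteins bind the methylated lysine through a chromodomain and pair with each other and with other silencing factors through a chromoshadow domain. KDM3A removes mono- and dimethylation, and KDM4A removes trimethylation from H3K9 and H3K36. In growing oocytes these enzymes and readers work while transcription is high and DNA methylation is being laid down.

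Between NGO and GO1 the levels of *Ehmt2* and *Cbx3* parted from those of their paralogs *Ehmt1* and *Cbx1*. *Ehmt2* was 6.05-fold lower in GO1 and *Cbx3* (HP1γ) 4.74-fold lower, or 2.31-fold lower in the mean of the CPM values of single cells (the mean over cells), whereas the ratios of GO1 to NGO were 1.44 for *Ehmt1* and 1.42 for *Cbx1* (HP1β). The other HP1 gene, *Cbx5* (HP1α), was also lower in GO1, by 1.40-fold, or 1.61-fold in the means over cells. *Suv39h2* was 2.33-fold higher in GO1, and the ratio of *Suv39h1* was 1.204. After GO1 the differences between neighbouring stages were smaller for most of the 10 genes, and *Ehmt2* and *Cbx3* were lowest in GO2 and higher again in GO3 and FGO.

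The size rule counted a gene as different where one stage had at least 10 CPM and at least 2-fold the CPM of the other. *Kdm3a* and *Kdm4a* reached 10 CPM in no stage, so 8 of the 10 genes could be counted in any comparison, and 6 reached 10 CPM in all 5 stages. Between NGO and GO1, 3 of 8 genes passed, with *Suv39h2* higher and *Ehmt2* and *Cbx3* lower in GO1, against 46.3% of the 8527 genes that reached 10 CPM in either stage. The share of these genes is not above that of the transcriptome. Between GO1 and GO2 none of 7 passed, against 3.14% of all genes. *Cbx3* was the one gene of 7 that passed between GO2 and GO3, where 4.35% of all genes did, and it was higher in GO3. None of 7 passed between GO3 and FGO, against 5.96%. Between NGO and FGO 1 of 8 passed, *Cbx3*, against 27.3% of all genes.

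The median log2 ratio (of CPM + 1) over the members with 10 CPM in either stage was 0.38 from NGO to GO1, where the median over all genes was -0.14. For NGO to FGO the medians were 0.27 and -0.12. In the 3 steps between, the members' medians of -0.14, 0.27 and -0.004 stood beside -0.11, 0.08 and 0.06 over all genes. With TMM factors the medians over all genes were 0.046 and 0.073 in the comparisons of NGO with GO1 and FGO, and those of the members 0.54 and 0.44. In the means over cells the members' median from NGO to GO1 was 0.008, beside -0.35 over all genes. *Ehmt2* and *Cbx3* lay below zero in both comparisons with NGO, and *Cbx5*, at -0.48, in that with GO1.

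**Figure D1:**
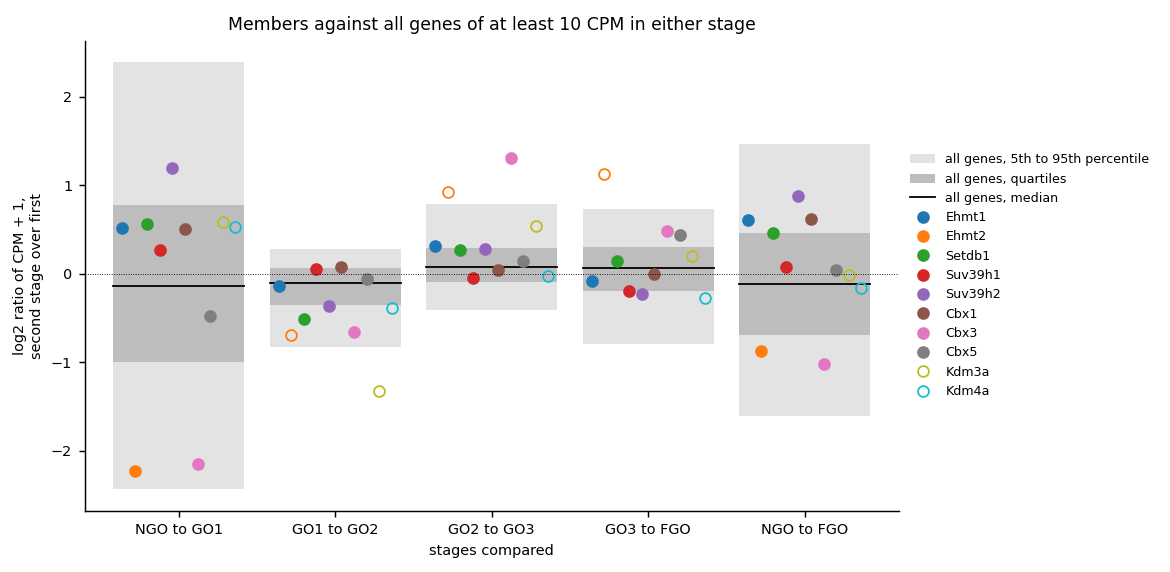
Log2 ratio of CPM + 1 (second stage over first) of each of the 10 genes in the 5 comparisons, with grey boxes for the quartiles and the 5th to 95th percentile of all genes past 10 CPM in either stage and a black line for their median; open circles are members under 10 CPM in both stages. From NGO to GO1 *Ehmt2* and *Cbx3* sit at -2.23 and -2.15, within the band that starts at -2.43, and *Suv39h2* lies above the upper quartile of 0.77.

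The upstream sequences of 3 genes are shown because *Cbx3* and *Cbx1* are the HP1 pair whose levels parted most at GO1 and *Suv39h2* is the one writer gene that passed the size rule upwards. Each runs 5′ to 3′ over the 250 bases before the annotated start of the gene in NCBIM37, the build that mm9 names, and none of the 3 holds an annotated exon. Capitals mark a GC box (GGGCGG, or CCGCCC on the other strand) or a cyclic AMP response element (TGACGTCA).
Cbx3, chr6:51420109-51420358, plus strand: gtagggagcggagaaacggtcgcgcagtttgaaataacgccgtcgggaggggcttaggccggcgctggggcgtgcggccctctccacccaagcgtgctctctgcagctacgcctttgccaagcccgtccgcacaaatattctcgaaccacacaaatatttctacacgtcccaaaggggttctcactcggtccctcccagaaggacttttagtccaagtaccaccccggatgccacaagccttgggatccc
Cbx1, chr11:96650191-96650440, plus strand: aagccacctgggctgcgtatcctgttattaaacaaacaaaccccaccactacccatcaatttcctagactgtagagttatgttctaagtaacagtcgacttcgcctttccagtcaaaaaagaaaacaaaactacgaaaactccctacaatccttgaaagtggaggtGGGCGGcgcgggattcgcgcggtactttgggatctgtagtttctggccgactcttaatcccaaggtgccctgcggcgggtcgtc
Suv39h2, chr2:3392304-3392553, minus strand: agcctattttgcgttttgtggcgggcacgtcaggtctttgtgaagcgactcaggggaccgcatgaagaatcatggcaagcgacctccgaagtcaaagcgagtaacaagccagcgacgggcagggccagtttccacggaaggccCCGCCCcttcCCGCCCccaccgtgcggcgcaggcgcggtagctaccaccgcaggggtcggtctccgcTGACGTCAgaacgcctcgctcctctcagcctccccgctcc

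The windows of all 10 genes were rich in CpG, with a median of 16.5 CpG in 250 bases against 8 over the windows of 22362 protein-coding genes. Searched on both strands, a GC box was found in the windows of 8 of the 10 genes, all but *Cbx3* and *Kdm4a*, and in 39.6% of all windows. A CCAAT box (CCAAT) was found in 5 of 10 against 34.98% of all windows, in *Cbx5*, *Kdm3a*, *Kdm4a*, *Setdb1* and *Suv39h1*. The E-box CACGTG was present upstream of *Ehmt2* and *Cbx5* (6.52% of all windows) and TGACGTCA upstream of *Suv39h2* alone among the 10 (1.91%). Neither the palindromic NRF1 motif (0.894% of all windows) nor the TATA box TATAAA (12.3%) was found in any of the 10. None of these motifs is contained in another of them. The window of *Ehmt2* overlaps the first exon of *C2* on the other strand and is not printed. The letters describe these windows only, and nothing was measured here on the binding of any factor.

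The G9a and GLP genes ran different courses. *Ehmt2* (NCBIM37 chromosome 17, 35035414 to 35050997, plus strand) was at 16.3 CPM (NGO), 2.69 (GO1), 1.28 (GO2), 3.31 (GO3) and 8.40 (FGO). NGO was the highest stage and GO2 the lowest, 12.7-fold apart (interval 8.86 to 18.8), the widest range among the 10 genes in the sums, and 20.3-fold in the means over cells. The counting intervals of GO1 and GO3 overlapped and those of all other neighbours in this order did not.

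Over single cells, *Ehmt2* ran from 0 to 64.7 CPM in NGO with a median of 16.3, and 45 of 46 NGO cells had a UMI. In GO1 the cells ran from 0 to 29.9 with a median of 0, and 18 of 51 had a UMI. The median was also 0 in GO2, whose highest cell stood at 4.01 CPM, and it was 2.77 in GO3 and 5.78 in FGO, with highest cells at 10.4 and 21.5. Because a shallow cell can miss a gene of this level, the cells of at least 100000 UMIs were also set apart (42 NGO, 27 GO1, 24 GO2, 44 GO3 and 53 FGO cells). Among these the lowest NGO cell was at 5.38 CPM, above the highest GO2 cell. NGO and GO1 cells overlapped, since 14 of the 27 deep GO1 cells had no *Ehmt2* UMI and the highest of them stood at 29.9 CPM.

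The fold of *Ehmt2* between NGO and GO1 had a counting interval of 4.70 to 7.88 and was 5.14 to 6.87 over the 7 alternatives to the scaling and the cells. From GO3 to FGO *Ehmt2* was 2.54-fold higher (2.13 to 3.04), a step that the 10 CPM limit kept from being counted. The level in FGO was 1.94-fold below that in NGO (1.70 to 2.21), just short of the 2-fold limit.

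*Ehmt1* (chromosome 2, 24646289 to 24775129, minus strand) had a flatter course, with 42.3 CPM (NGO), 61.04 (GO1), 55.4 (GO2), 68.8 (GO3) and 65.0 (FGO). NGO was the lowest stage, and it was the one neighbour in the order whose counting interval stood clear of the next. Its cells ran from 14.2 to 100.6 CPM in NGO with a median of 38.9, and from 28.7 to 142.2 in GO3 with a median of 72.2. A UMI was found in 42 of 51 GO1 cells, in 54 of 56 FGO cells and in every cell of the other stages. The cell ranges of all stages overlapped. GO3 was 1.63-fold above NGO (1.52 to 1.74) and was the highest stage in the main setting and under each of the 7 alternatives.

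Set against each other, *Ehmt2* counted 0.385 UMIs per *Ehmt1* UMI in NGO (interval 0.342 to 0.431), then 0.0441 (GO1), 0.0231 (GO2), 0.0481 (GO3) and 0.129 (FGO). This ratio needs no scaling between stages, and it can be read as a change over stages but not as the proportion of the 2 transcripts, since UMIs were not set per length. Without the 10 deepest cells of each stage it ran 0.407, 0.0394, 0.0155, 0.0474 and 0.128. In NGO 6 of 46 cells counted more UMIs of *Ehmt2* than of *Ehmt1*, and in GO2, GO3 and FGO no cell did.

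The remaining writers varied less than *Ehmt2*, over 1.25-fold to 2.33-fold between their highest and lowest stage. *Setdb1* (chromosome 3, 95127447 to 95161124, minus strand), the retrotransposon-silencing methyltransferase gene, was at 18.8 CPM (NGO), 28.3 (GO1), 19.5 (GO2), 23.7 (GO3) and 26.3 (FGO). GO1 and FGO, FGO and GO3, and GO2 and NGO had overlapping counting intervals. Cells ran from 0 to 35.1 CPM in NGO with a median of 16.2 and from 0 to 141.2 in GO1 with a median of 23.7, so GO1 held the highest single cell. In the later stages the medians were 17.25 (GO2), 22.1 (GO3) and 23.01 (FGO), with highest cells at 60.2, 40.6 and 74.6 CPM. The GO1 level was 1.502-fold above NGO (1.34 to 1.69).

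*Suv39h1* (chromosome X, 7638297 to 7651886, minus strand) had the smallest range of the 10 genes, 1.25-fold between its highest and lowest stage. Its levels were 49.1 CPM (NGO), 59.1 (GO1), 61.4 (GO2), 59.6 (GO3) and 51.97 (FGO). Over single cells the medians were 63.5 CPM (GO2), 57.6 (GO3) and 53.8 (FGO), and every GO3 cell lay between 29.4 and 97.3 CPM. The direction from NGO to GO1 depended on how cells were weighed. The sums were 1.204-fold higher in GO1 (1.117 to 1.30), whereas the mean over cells went from 49.7 to 38.1 CPM, a ratio of 0.766. The median over all GO1 cells was 28.5 CPM against 47.1 in NGO, and it was 53.7 in the 27 GO1 cells of at least 100000 UMIs.

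*Suv39h2* (chromosome 2, 3373087 to 3392303, minus strand) was at 27.7 CPM (NGO), 64.5 (GO1), 50.0 (GO2), 60.8 (GO3) and 51.6 (FGO). NGO was the lowest stage, clear of the others in its counting interval, while GO1 and GO3, and FGO and GO2, overlapped. Cells ran from 0 to 288 CPM in NGO with a median of 23.8, from 0 to 213 in GO1 with a median of 46.9 and from 20.4 to 76.4 in GO2 with a median of 44.8. In GO3 the median was 52.7 (0 to 218) and in FGO 38.2 (0 to 91.04). The median of every later stage was thus above that of NGO, while the ranges overlapped. One NGO cell stood above all cells of the later stages. It had fewer than 100000 UMIs, and the highest of the deeper NGO cells was at 57.03 CPM.

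The ratio of *Suv39h2* in GO1 to NGO was 2.33 (2.13 to 2.55) and ranged from 1.21 to 2.60 over the alternatives. The lowest came from cells thinned to 20000 UMIs each, in which the gene had 38 UMIs in NGO and 51 in GO1. In FGO the mean over cells was 40.0 CPM, below the 51.6 CPM of the sum. *Suv39h2* counted 0.564 UMIs per *Suv39h1* UMI in NGO (0.514 to 0.620), then 1.09 (GO1), 0.814 (GO2), 1.02 (GO3) and 0.994 (FGO). In FGO the ratio was 0.711 without the 10 deepest cells. More UMIs of *Suv39h2* than of *Suv39h1* were found in 8 of 46 NGO cells and in 30 of the 50 GO1 cells that had a UMI of either. The counts were 8 of 26 in GO2, 19 of 44 in GO3 and 18 of 55 in FGO. In GO1 13 of the 24 cells under 100000 UMIs had no *Suv39h1* UMI. *Suv39h2* overlaps the 3′ part of *Dclre1c* on the opposite strand, and the strand setting of the counting is not given in the sources used here, so reads of the overlap cannot be told apart. *Setdb1*, *Suv39h1* and *Kdm4a* also overlap an annotated gene on the opposite strand, with the same limit.

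**Figure D2:**
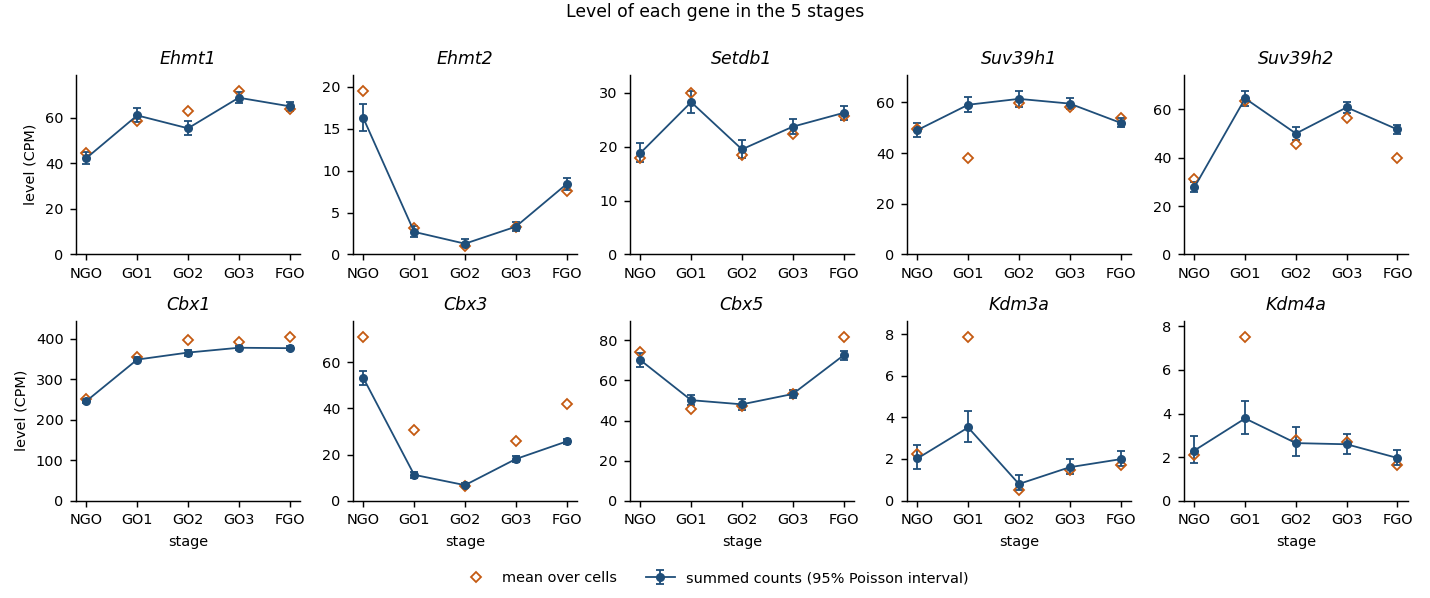
Level of each of the 10 genes in the 5 stages in CPM; filled circles are UMI sums with exact 95% Poisson intervals and open diamonds the average of the single-cell CPM values, with each vertical axis starting at 0. *Ehmt2* and *Cbx3* drop from 16.3 and 53.2 CPM in NGO to 1.28 and 6.73 CPM in GO2, and for *Cbx3* the sum and the mean over cells part most in GO1, at 11.2 and 30.7 CPM.

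Among the readers, *Cbx3* and *Cbx1* moved apart. *Cbx3* (chromosome 6, 51420359 to 51433703, plus strand), the HP1γ gene, was at 53.2 CPM (NGO), 11.2 (GO1), 6.73 (GO2), 18.04 (GO3) and 25.7 (FGO). The order from NGO through FGO, GO3 and GO1 to GO2 held in the sums with no overlap of counting intervals, over a range of 7.91-fold (6.73 to 9.34). In the means over cells GO1 stood above GO3, at 30.7 and 26.04 CPM.

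Over single cells *Cbx3* ran from 25.2 to 370 CPM in NGO with a median of 55.3, from 0 to 214 in GO1 with a median of 17.2 and from 0 to 21.4 in GO2 with a median of 4.00. In GO3 the cells ran from 6.48 to 113.7 (median 17.96) and in FGO from 9.44 to 157.1 (median 31.1). All 46 NGO cells were above the highest GO2 cell. A complete separation of NGO from GO2 cells was seen for 1 of 8 members, *Cbx3*, and for 4.74% of all genes with 10 CPM in either stage. In cells of at least 100000 UMIs it was seen for 2 of 8 members, *Ehmt2* and *Cbx3*, and for 6.71% of all genes. No member separated NGO from GO1 cells completely, where 1.27% of all genes did, and 4.81% in the deeper cells.

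How steep the *Cbx3* difference at GO1 was depended on the weight of the cells. The sums gave 4.74-fold from NGO to GO1 (4.18 to 5.39) and the means over cells 70.9 and 30.7 CPM, 2.31-fold. From GO1 to GO2 the sums gave 1.67-fold lower (1.38 to 2.03) and the means 4.68-fold lower, which passes the size rule. In the means over cells 306 of all genes were higher and 908 lower of 7356 in this step. The 24 GO1 cells under 100000 UMIs had 47.96 CPM of *Cbx3* (36.8 to 61.5), 11 of them with no UMI, and the 27 deeper cells had 9.35 (8.20 to 10.6). For *Suv39h1* the same cells gave 22.4 CPM (15.02 to 32.2) and 60.96 (57.96 to 64.1). The intervals of the shallow and deep GO1 cells overlapped for each of the other 8 genes. Outside GO1 some intervals did not overlap, with 2 to 4 shallow cells in a stage. The shallow cells were higher in *Cbx3* (NGO and FGO), *Suv39h2* (NGO) and *Cbx1* (GO2), and lower in *Suv39h1* (GO2 and FGO). Which mouse or library these cells came from is not known, and the part of depth was not tested.

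From GO2 to GO3 *Cbx3* was 2.68-fold higher (2.27 to 3.18), and 3.98-fold in the means over cells. From GO3 to FGO it was 1.42-fold higher (1.31 to 1.55). FGO was 2.07-fold below NGO (1.93 to 2.23), a difference that no longer passed with DESeq2 size factors, with TMM factors, in the means over cells (1.70-fold), in cells thinned to 20000 UMIs or without the 10 deepest cells. The annotation holds 1 named pseudogene of *Cbx3*, which is not in the count table, and reads shared with it are uncertain.

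**Figure D3:**
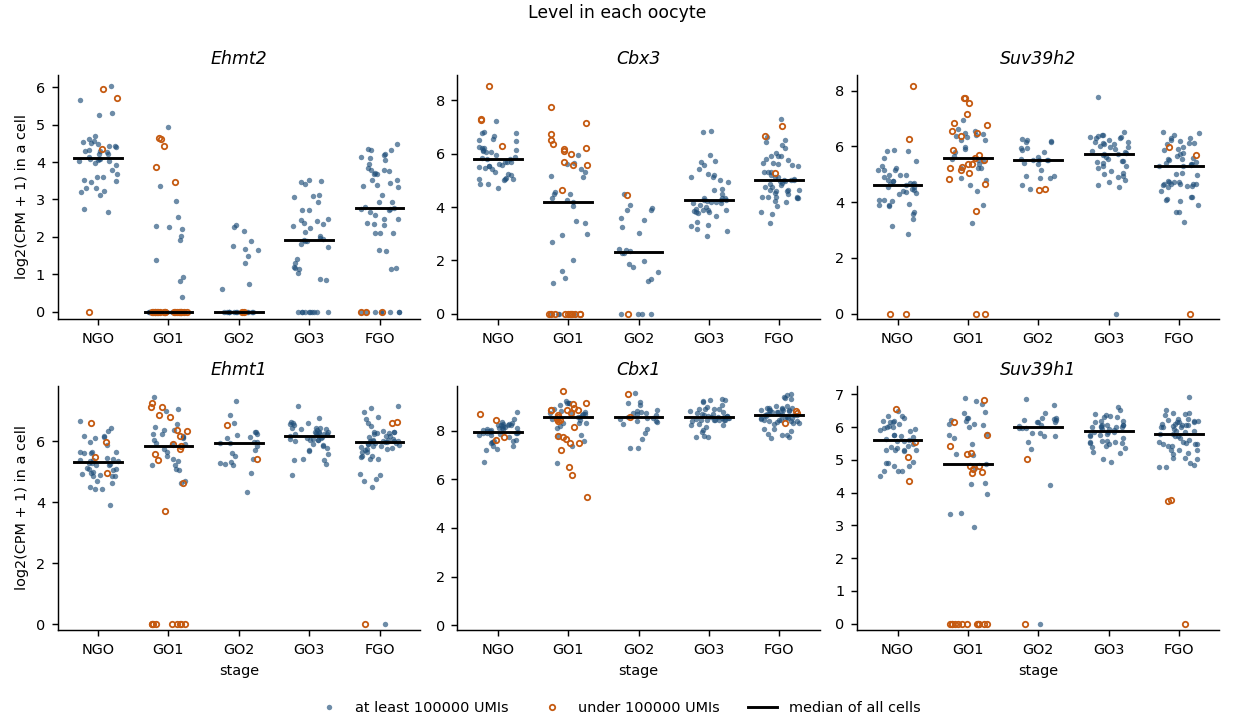
Level of 6 genes in each oocyte as log2(CPM + 1), by stage; filled points are cells of at least 100000 UMIs, open points shallower cells, black lines the medians of all cells, and points are spread sideways at random. For *Cbx3* all NGO cells lie above all GO2 cells, for *Ehmt2* the GO1 and GO2 medians lie at 0, and for *Cbx1* every oocyte has a UMI.

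*Cbx1* (chromosome 11, 96650441 to 96669954, plus strand), the HP1β gene, was at 246 CPM (NGO), 349 (GO1), 366 (GO2), 378 (GO3) and 377 (FGO). NGO was the lowest stage, and from GO2 to FGO the counting intervals of neighbours in the order overlapped. All 223 cells had a *Cbx1* UMI. The cells ran from 105.05 to 439 CPM in NGO (median 248) and from 208 to 728 in FGO (median 400.0), so the ranges overlapped. The medians of GO1, GO2 and GO3 were 374.6, 376.2 and 373.6 CPM, and the lowest oocyte of all, at 37.4 CPM, was a GO1 cell. The ratio of GO1 to NGO was 1.42 (1.37 to 1.46) in the sums and in the means over cells. The annotated gene spans a pseudogene on the opposite strand, *Gm11517*.

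*Cbx5* (chromosome 15, 103021975 to 103070247, minus strand), which encodes HP1α, was at 70.2 CPM (NGO), 50.2 (GO1), 48.1 (GO2), 53.2 (GO3) and 72.5 (FGO). FGO and NGO overlapped at the top of the order and GO3, GO1 and GO2 at the bottom. Cell medians were lowest in GO1 and not in GO2, with 73.5 CPM for NGO (25.8 to 124.15), 37.6 for GO1 (0 to 424), 46.6 for GO2 (12.9 to 88.05), 49.4 for GO3 (17.2 to 132.05) and 79.1 for FGO (11.4 to 184). From GO3 to FGO *Cbx5* was 1.36-fold higher (1.30 to 1.43), and from NGO to GO1 1.40-fold lower (1.30 to 1.503). The direction from GO1 to GO2 turned under 5 of the alternatives, to a log2 ratio of 0.38 without the 10 deepest cells.

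The 3 HP1 genes together made up 369.6 CPM (NGO), 410.1 (GO1), 420.9 (GO2), 449.3 (GO3) and 475.2 (FGO), and the counting intervals of neighbouring stages overlapped for GO1 and GO2 alone. Within this sum the share of *Cbx3* was highest in NGO. *Cbx3* counted 0.216 UMIs per *Cbx1* UMI in NGO (0.203 to 0.229), then 0.0322 (GO1), 0.0184 (GO2), 0.0477 (GO3) and 0.0681 (FGO). In GO1 this ratio was 0.0774 without the 10 deepest cells, so its lowest value fell in GO2 in both. *Cbx5* counted 0.285 UMIs per *Cbx1* UMI in NGO, 0.131 to 0.144 in the 3 growing stages and 0.192 in FGO, so it too was highest in NGO.

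**Figure D4:**
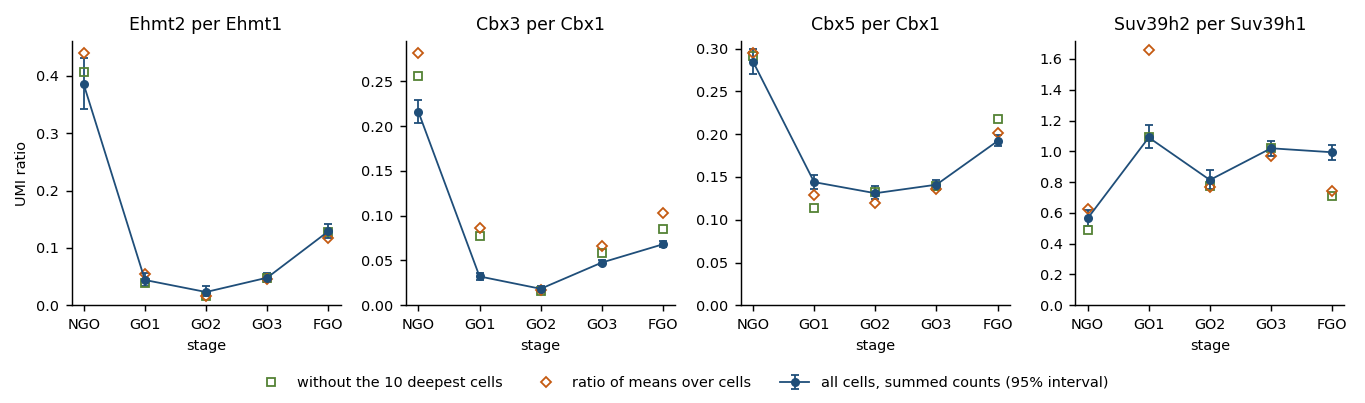
UMIs of one gene per UMI of its paralog in the 5 stages, for 4 pairs; filled circles are all cells with exact 95% intervals, squares leave out the 10 deepest cells of each stage and diamonds are ratios of the means over cells. *Ehmt2* per *Ehmt1* and *Cbx3* per *Cbx1* are highest in NGO (0.385 and 0.216) and lowest in GO2 (0.0231 and 0.0184), and *Suv39h2* per *Suv39h1* is lowest in NGO (0.564).

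The eraser genes were close to the limit of what could be counted. *Kdm3a* (chromosome 6, 71538968 to 71582899, minus strand) was at 2.02 CPM (NGO), 3.51 (GO1), 0.801 (GO2), 1.61 (GO3) and 1.99 (FGO), with 20 UMIs in GO2 and under 100 in every stage but FGO. GO1 stood highest and GO2 lowest, 4.39-fold apart (2.69 to 7.51), and NGO, FGO and GO3 lay between with overlapping intervals. In GO1 16 of 51 cells had a UMI, and one shallow cell stood at 210 CPM. *Kdm4a* (chromosome 4, 117809562 to 117852648, minus strand) was at 2.30, 3.78, 2.64, 2.59 and 1.96 CPM from NGO to FGO, and the counting intervals of all neighbours in its order overlapped. It had a UMI in 21 of 46 NGO cells and in 20 of 26 GO2 cells, with cell medians of 0 and 2.33 CPM. No comparison of either gene reached the 10 CPM limit. Together they made up 4.33 CPM in NGO and 3.44 to 7.29 CPM later, where the mean over cells in GO1 was 15.4 CPM, while the 5 methyltransferase genes made up 154.2 CPM in NGO and 187.5 to 216.2 CPM later.

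Of the 40 other genes of the pathway, 29 reached 10 CPM in NGO or GO1. From NGO to GO1 7 of them were higher and 7 lower by the size rule, where 20.6% of all genes were higher and 25.7% lower, with a median log2 ratio of -0.16 against -0.14 over all genes. From GO1 to GO2 1 of 26 was lower (3.14% of all genes passed in either direction), from GO2 to GO3 2 of 23 were higher (4.35%) and from GO3 to FGO none of 25 passed (5.96%). From NGO to FGO 1 was higher and 5 were lower of 28, where 27.3% of all genes passed. These counts do not set the list apart from all genes, and those of its groups below, of 4 to 8 genes each, are given as descriptions beside the same shares.

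SETDB1 partners and the HUSH complex, which silences retrotransposons through H3K9 trimethylation, had 3 of 8 genes higher and none lower from NGO to GO1, against 20.6% and 25.7% of all genes. *Trim28*, the scaffold that brings SETDB1 to its targets, was at 27.3 CPM in NGO and 60.8 in GO1. *Morc2a*, a HUSH effector, was at 5.28 and 11.03 CPM. *Setdb2*, itself a methyltransferase gene of the SETDB family, was at 9.37 and 49.4 CPM, 5.27-fold higher (4.59 to 6.08), and it was higher again from GO2 to GO3, at 37.03 and 76.4 CPM. In the means over cells *Trim28* and *Morc2a* were 1.81-fold and 1.82-fold higher, below the limit, and *Fam208a*, a HUSH subunit gene named here after its values were seen, passed as lower, from 23.4 to 11.4 CPM. In the sums *Fam208a* went from 21.99 to 13.08 CPM. *Pphln1* of this group, also named after its values were seen, went from 196.4 to 160.1 CPM. Both differences were below the limit.

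Among G9a/GLP partners and readers 1 of 4 was higher and 2 were lower from NGO to GO1, against 20.6% and 25.7% of all genes. *Mphosph8*, a chromodomain protein of HUSH that binds methylated H3K9, went from 351 to 977 CPM. *Zfp644*, a zinc finger partner of G9a and GLP, went from 97.7 to 27.5 CPM, and *Cdyl2*, a chromodomain gene, from 29.6 to 11.8, or from 29.7 to 5.36 in the means over cells. In those means 2 were higher and 2 lower of 4, beside 1883 and 2954 of all 8539 genes. *Cdyl*, named here after its values were seen, passed there as higher, from 28.4 to 79.7 CPM. In the sums it went from 31.3 to 58.4 CPM, below the limit.

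HP1 partners had 1 higher and 2 lower of 8 from NGO to GO1, against 20.6% and 25.7% of all genes. In the means over cells 2 were higher and 4 lower of 8, beside 1883 and 2954 of all 8539 genes. The 2 lower ones in the sums were the H4K20 methyltransferase genes *Kmt5b* and *Kmt5c*. *Kmt5b* was 6.91-fold lower (5.87 to 8.18), from 43.4 to 6.28 CPM. *Kmt5c* was 6.16-fold lower (4.85 to 7.91), from 18.4 to 2.99 CPM, or 11.2-fold lower in the means over cells. Their products place H4K20 methylation where HP1 is bound. *Sgo1*, a gene of the shugoshin family of centromeric cohesion protectors, went from 89.6 to 236 CPM, and from 86.2 to 577 CPM in the means over cells.

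Of the other demethylase genes 1 of 5 was higher and 2 were lower from NGO to GO1, against 20.6% and 25.7% of all genes. *Kdm4b*, which acts on trimethylated H3K9, went from 15.2 to 3.70 CPM. The other 2 are best known as H3K4 demethylase genes, *Kdm1a* from 8.22 to 18.2 CPM and *Kdm1b*, which is needed for maternal imprints, from 361 to 96.9 CPM. *Kdm1b* was also lower in GO2, at 46.2 CPM, and at 95.2 in GO3. In the last group *Prdm2*, a methyltransferase gene, went from 34.3 to 80.4 CPM, and was 1.67-fold higher in the means over cells, below the limit. *Uhrf1*, whose product reads methylated H3K9 and hemimethylated DNA, went from 1169 to 300.3 CPM, 3.89-fold lower (3.80 to 3.99).

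**Figure D5:**
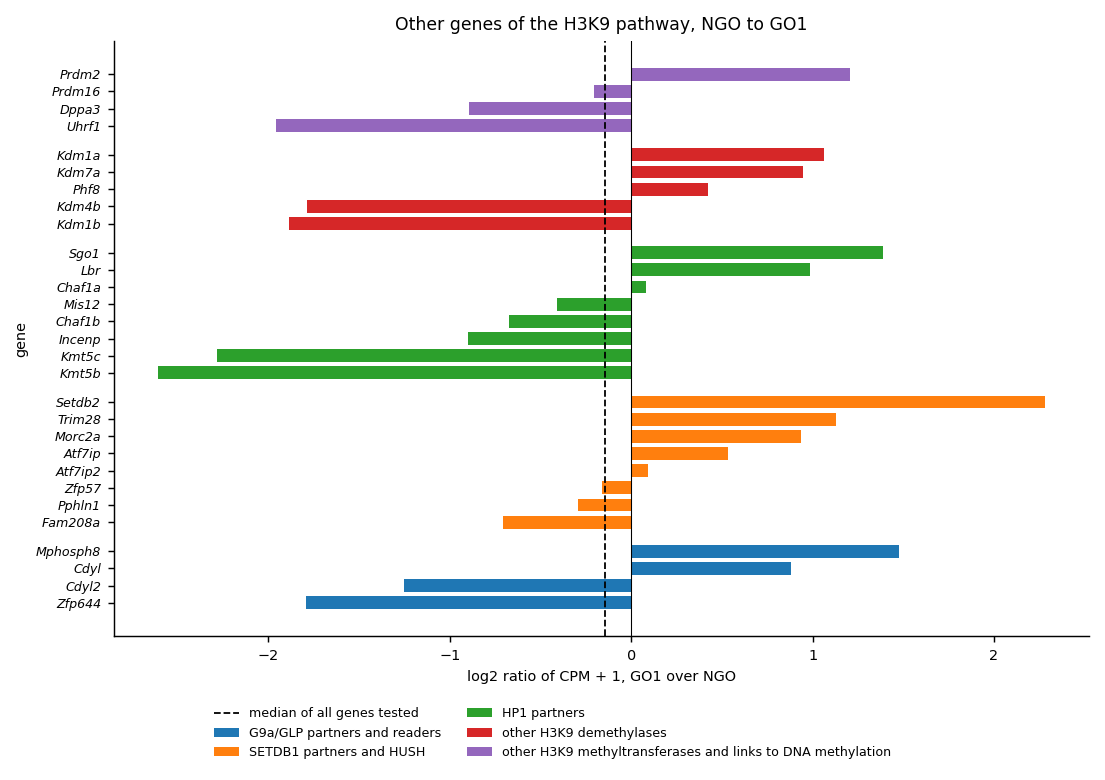
Log2 ratio of CPM + 1, GO1 over NGO, of the 29 other pathway genes past 10 CPM in either stage, by group; the dashed line is the median of all genes tested. *Kmt5b* and *Kmt5c* among the HP1 partners reach furthest to the left and *Setdb2* furthest to the right.

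Against 2 other families of chromatin genes, the 10 genes lay between. From NGO to GO1 the median log2 ratio was 0.87 over 24 Polycomb genes, with 11 higher and 4 lower, and -0.27 over 16 H3K4 genes, with 3 higher and 4 lower, beside 0.38 over the 8 members. Over all genes 20.6% were higher and 25.7% lower. In the means over cells the medians were 0.75, -0.82 and 0.008, beside -0.35 over all genes. There 5 H3K4 genes were higher and 7 lower of 17, beside 1883 and 2954 of all 8539 genes. None of these medians was tested, and the genes of a family are not replicates.

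The courses of the 3 genes with a range of at least 2-fold and 10 CPM in a stage were set against 8670 other genes by the root mean square difference of centred log2(CPM + 1) over the 5 stages. Nearest to *Ehmt2* were *Nes* (difference 0.0929), *Mdn1* (0.122) and *Sqle* (0.148). *Cbx3* had *2410002F23Rik* (0.0597), *Gart* (0.0648) and *Wdr3* (0.0806) nearest. For *Suv39h2* they were *Cenpa* (0.0424), which encodes the centromeric histone H3 variant, *Hypk* (0.0425) and *Arhgap21* (0.0462). *Cenpa* was at 66.8 CPM (NGO), 149.6 (GO1), 119.6 (GO2), 143.7 (GO3) and 114.1 (FGO). Among the 10 genes themselves *Ehmt1* and *Cbx1* were nearest to each other (0.0889), and *Ehmt2* and *Cbx3* were 0.212 apart.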

How the data were processed

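Single-cell RNA-seq counts of mouse oocytes were used. Per the study's methods, the authors split reads by cell barcode, mapped them to the mm9 transcriptome with Tophat, collapsed them by UMI and deposited whole-number counts per gene and cell, without normalisation. The deposited counts are of 223 cells, and cell names give the stage but no library. UMIs were summed per stage and divided by the stage total (CPM). No test between stages was made, since each stage was 1 sample. A size rule of at least 2-fold and 10 CPM in the higher stage was used in 5 comparisons over all genes, and the limit of a count of 0 was set at 3 UMIs. Poisson and binomial-split intervals are exact, at 95%. The genes, the lists and the rule were chosen with earlier results of these data known. All 10 members were to be named, and of the pathway list up to 4 genes per group and comparison, largest fold first, among those past the size rule. Alternatives were DESeq2 1.42.0 size factors, TMM factors (edgeR 4.0.16), means over cells, cells thinned to 20000 UMIs (seed 7), 26 cells from each stage, no cells of the 10 deepest, no filter, 50 CPM and 1.5-fold, and cells of at least 100000 UMIs, the last added after seeing the data. DESeq2 and edgeR gave scaling only. Positions, and the 250 bases before each gene, are from GENCODE vM1 on NCBIM37, counted from 1. No doublet caller was run, because oocytes were picked by hand. Scripts ran in R 4.3.3 and in Python 3.11.15 with scipy 1.17.1, pandas 2.3.3, numpy 2.4.6 and matplotlib 3.10.9. The chromatin accessibility and DNA methylation data of the study were not analysed here.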

Additional observations from a re-analysis of the deposited data

How the results depend on the processing

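No paired analysis was possible because the cells carry no replicate or library number and no test was made. The number of members past the size rule between NGO and GO1 stayed within 1.5 times the main count of 3 under all alternatives, but with thinned cells they were *Ehmt2*, *Cbx3* and *Kdm3a*. *Kdm3a* rested there on 3 UMIs in NGO and on 11 UMIs in 5 GO1 cells. From GO1 to GO2, where none passed, 1 gene (*Cbx3*, lower) passed in the means over cells, in thinned cells, without the 10 deepest cells and at 1.5-fold. With no filter 2 passed (*Ehmt2* and *Kdm3a*). Over all genes 8 were higher and 223 lower of 7356 in the main setting and 306 and 908 in the means over cells. They were 628 and 1196 of 7420 in thinned cells and 682 and 596 of 7234 without the 10 deepest. From GO2 to GO3 the count of 1 became 3 with no filter and 0 at 50 CPM. From GO3 to FGO the count of 0 became 1 in thinned cells (*Cbx3*) and with no filter (*Ehmt2*). From NGO to FGO the count of 1 became 0 with DESeq2 size factors and without the 10 deepest cells, 2 with equal numbers of cells and 5 at 1.5-fold. It was also 1 with TMM factors, where the gene was *Suv39h2*, and in the means over cells and in thinned cells, where it was *Ehmt2*, each in place of *Cbx3*.

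The counts of the pathway list, which is longer, moved with these choices as well. From NGO to GO1 its count of 14 became 7 at 50 CPM. The 7 higher and 7 lower genes became 10 and 7 with DESeq2 and TMM factors. In the means over cells they were 6 and 10, and in thinned cells 9 and 11. Over all genes the means gave 1883 higher and 2954 lower of 8539, and thinned cells 1943 and 2933 of 8515. From GO1 to GO2 the list's count of 1 became 0 with DESeq2 and TMM factors, 9 in the means over cells and 10 in thinned cells. It was 5 without the 10 deepest cells or with no filter and 7 at 1.5-fold. Of all genes 8 were higher and 223 lower of 7356 in this step in the main setting. In the means over cells they were 306 and 908, and in thinned cells 628 and 1196 of 7420. Without the 10 deepest cells they were 682 and 596 of 7234, and with DESeq2 factors 14 and 82 of 7425. From GO2 to GO3 the list's count of 2 became 0 with DESeq2 and TMM factors, 4 in thinned cells, 1 with equal numbers of cells and 7 with no filter. Over all genes 245 were higher and 74 lower of 7334 in the main setting. They were 174 and 120 of 7441 with DESeq2 factors and 874 and 316 of 7501 in thinned cells. From GO3 to FGO the list's count of 0 became 2 in thinned cells and without the 10 deepest cells, 1 with no filter and 4 at 1.5-fold. Over all genes 184 were higher and 270 lower of 7622 in the main setting. They were 537 and 669 of 7689 in thinned cells and 241 and 372 of 7533 without the 10 deepest. From NGO to FGO its count of 6 became 11 in thinned cells, 10 without the 10 deepest cells or with no filter and 16 at 1.5-fold. The causes were not tested.

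Of 342 log2 ratios of members under the alternatives, 314 kept the direction of the main value and 28 did not, none of which belonged to a comparison that passed in the main setting. The median of all genes between NGO and GO1 was -0.14 in the main setting, 0.046 with TMM factors and -0.35 in the means over cells, and a scaling factor moves the ratio of every member by the same amount. Of all genes past the rule between GO1 and GO2, 3.46% were higher in GO2 in the main setting, 14.6% with DESeq2 factors, 25.2% in the means over cells and 53.4% without the 10 deepest cells. From GO2 to GO3 76.8% were higher, or 59.2% with DESeq2 factors, and from NGO to FGO 41.4%, or 56.8% with TMM factors. Depth limits *Kdm3a* and *Kdm4a*, with as few as 20 and 58 UMIs in a stage, and the GO1 sums, which rest on few cells. Outside GO1 shallow and deeper cells differed in *Cbx3* and other genes named above.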
